A study of Homo sapiens with 6 samples.

Results

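The core binding factor and the ETO family of corepressors were described in Kasumi-1 cells through 7 genes. These were RUNX1, RUNX2, RUNX3, CBFB, RUNX1T1, CBFA2T2 and CBFA2T3, chosen by name as the subunits of the factor and the members of the family. All 7 were among the 32364 genes of the deposited table, and all 7 passed the filter on low values. Kasumi-1 is an established line of acute myeloid leukemia with the t(8;21) translocation, so every library carried it. Of the 6 mRNA libraries, 3 came from cells incubated for 48 h with I13, a histone deacetylase inhibitor, at 0.5 µM. The other 3 came from control cells over the same 48 h, for which the study's methods describe the matched amount of the solvent DMSO. Expression was measured as FPKM, fragments counted in a gene relative to its exon length and to the mapped total, from 16566742 to 17221345 fragments in the control libraries and 15281052 to 16682550 in the I13 libraries.

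The core binding factor is a heterodimer. A RUNX protein binds DNA through its Runt domain, and CBFB, which does not touch DNA, joins it and strengthens the binding. The 8;21 translocation fuses the Runt domain of RUNX1 to almost the whole of RUNX1T1, also known as ETO, a protein that brings NCOR and SMRT corepressors and histone deacetylases to DNA. CBFA2T2 (MTGR1) and CBFA2T3 (ETO2, MTG16) are its relatives and bind the same kind of partners. RUNX genes start from a distal and a proximal promoter, and the distal one carries RUNX sites.

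The longest run of bases common to RefSeq promoter windows of RUNX2 and RUNX3 is a tandem of RUNX sites, shown here because RUNX1 carries it too. Capitals mark the tandem, CAACCACAGAACCACAAG, and each line reads 5′ to 3′ on the strand of the gene.
RUNX1: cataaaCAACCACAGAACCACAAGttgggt
RUNX2: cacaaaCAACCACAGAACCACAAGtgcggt
RUNX3: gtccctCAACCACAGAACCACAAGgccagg
The RUNX1 line is chr21:35049259-35049288 on the minus strand of GRCh38, and its capitals begin after 16 bases of a GENCODE transcript, within the exons of 4 of the 17 RUNX1 transcripts in that annotation. The RUNX2 line is chr6:45328338-45328367 on the plus strand of GRCh38.p14 and its capitals begin 14 bases after the RefSeq start. The RUNX3 line is chr1:24965120-24965149 on the minus strand of GRCh38.p14, with the capitals at position -133 from the RefSeq start. RefSeq promoter windows were matched for 5 of the 7 genes, in 7 windows, and CBFB and RUNX1T1 were not analysed here. On both strands, the tandem was found in 2 of all 35116 windows (0.0057%), those of RUNX2 and RUNX3. The single site AACCACA, of which the tandem holds a pair, was in 1499 windows (4.27%). A match describes the letters of the window and not binding.

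The next sequences are the longest exact runs of bases that pairs of RUNX genes share in GENCODE transcripts. The length of such a run does not measure how alike the genes are. The longest run of identical bases shared by RUNX1 and RUNX3 had 41 bases and lay in the coding sequence of both. RUNX2 and RUNX3 shared at most 32 bases, and RUNX1 and RUNX2 at most 29, also in coding sequence. The next lines give each pair's run once, with no capitals.
RUNX1 and RUNX3: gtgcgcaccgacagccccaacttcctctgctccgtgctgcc
RUNX2 and RUNX3: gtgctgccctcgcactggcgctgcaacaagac
RUNX1 and RUNX2: cgcactggcgctgcaacaagaccctgccc
In GRCh38 the run of RUNX1 and RUNX3 stands at chr21:34886886-34886926 and chr1:24929630-24929670, both on the minus strand. That of RUNX2 and RUNX3 stands at chr6:45422907-45422938 on the plus strand and chr1:24929606-24929637 on the minus strand. That of RUNX1 and RUNX2 stands at chr21:34886855-34886883 on the minus strand and chr6:45422917-45422945 on the plus strand. The longest run over all pairs of the 7 genes had 42 bases, between exons of RUNX1 and CBFA2T2, where it was not coding. Among RUNX1T1, CBFA2T2 and CBFA2T3 the longest runs had 13 to 18 bases.

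Before the values, 1 feature of the libraries has to be given. Control replicate 3 and I13 replicate 2 stood apart from the other 4 libraries on the first principal component, which held 43.3% of the variance, while the component that separated control from I13 held 20.5%. No label names a batch. Beside several results, the value without this pair, or with a model term for it, is given as well. The labels do not say that the replicates were separate cultures. The study's caption calls its sequencing figures representative of 3 independent experiments, without tying these to the libraries. The p-values therefore measure the spread between these libraries. Markers of myeloid blasts were present at 8 of 8, with a summed level of 15023 to 16105 FPKM in control and 13568 to 15421 FPKM in I13. MPO made up most of that sum. Of the 8 markers, 3 were higher with I13 and 5 were lower (MPO, KIT, SPI1, AZU1 and ELANE), with a median log2 fold change of -0.05. I13 libraries lay above all control libraries for 2 of the 8, against 4.88% of all genes. These were ANPEP (24.0 to 30.6 FPKM, limma, unadjusted p = 0.00184, adjusted p = 0.540, voom adjusted p = 0.0435) and CD33 (11.5 to 13.2 FPKM, limma, unadjusted p = 0.0166, adjusted p = 0.890). Summed T cell markers were at 0.333 to 0.438 FPKM in control and 0.179 to 0.207 FPKM in I13, with CD3D at 16 and 6 fragments in all (limma, unadjusted p = 0.0205), and B cell markers at 1.83 to 2.27 FPKM and 2.07 to 2.93 FPKM. Erythroid markers summed to at most 0.201 FPKM, osteoblast markers to at most 0.400 FPKM, and the 3 stromal collagen and matrix genes in the table were listed at 0 in every library.

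None of the 7 genes passed a test of I13 against control. In limma on log2(FPKM + 0.1), 0 of 7 passed an adjusted p of 0.05 together with a log2 difference of 0.58 in either direction, as did 0 of all 18726 genes tested (0%). At an unadjusted p under 0.05 it was again 0 of 7, against 963 genes or 5.14% of all genes tested. Voom on recovered fragments also gave 0 of 7 at the unadjusted p, against 5.65% of its 12966 genes. The control and I13 ranges did not separate for any of the 7, while they did for 9.52% of all genes. Of the 7 fold changes, 3 were above 0 and 4 below, with a median of -0.01 on the log2 scale beside 0.01 for all genes tested. All 7 of the 95% intervals lay inside the threshold of 0.58 in both directions. In these bulk libraries, fewer cells of a kind and less RNA per cell cannot be told apart.

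**Figure D1:**
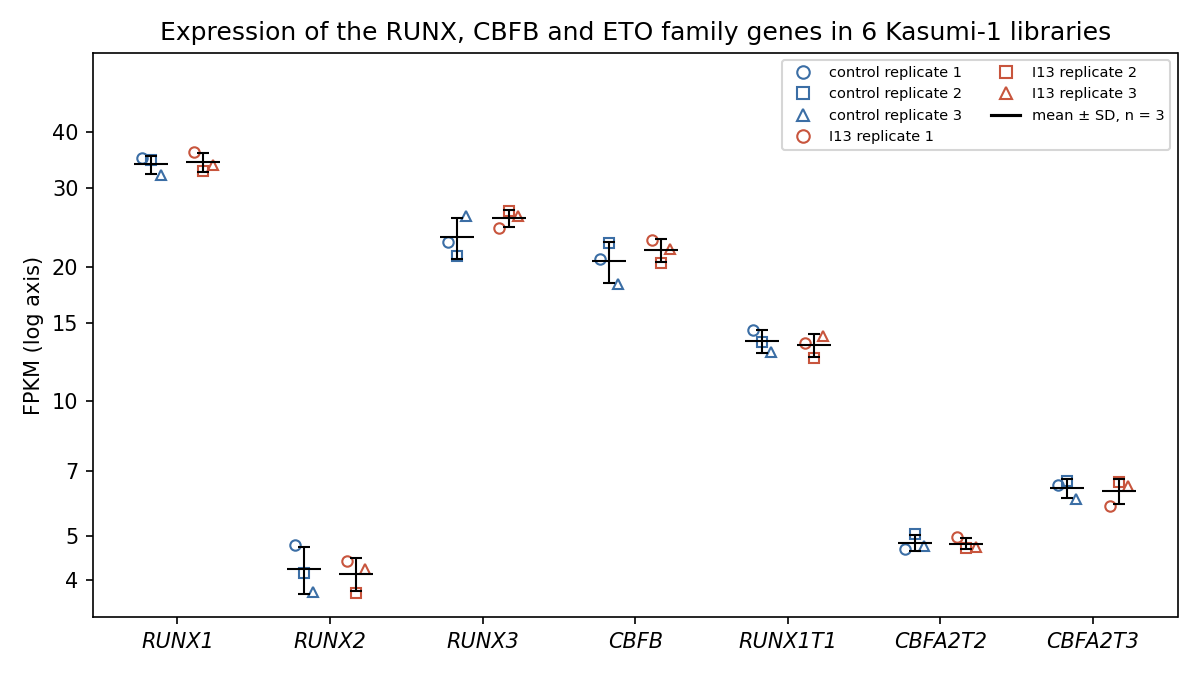
FPKM (log axis) of the 7 genes in each library, control beside I13, with a bar at each group mean. RUNX1 lay between 32.0 and 36.1 FPKM and RUNX2 between 3.74 and 4.77 FPKM, and the points of control and I13 overlapped for every gene.

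RUNX1 (ENSG00000159216), the DNA-binding subunit needed for the first blood stem cells, was the highest of the 7. The gene lies at chr21:34787801-36004667 on the minus strand in GENCODE 29 (GRCh38). Its FPKM was 34.9, 34.5 and 32.0 in control replicates 1, 2 and 3, and 36.1, 32.8 and 33.8 in I13 replicates 1, 2 and 3. The highest library was I13 replicate 1 and the lowest was control replicate 3, and the groups overlapped. The means were 33.8 ± 1.55 in control and 34.2 ± 1.71 in I13 (SD, n = 3), a log2 fold change of 0.02 with a standard error of 0.058 and a 95% interval from -0.12 to 0.15 (limma, adjusted p = 1.00). As a fold, that interval runs from 0.920 to 1.11. RUNX1 was counted from 8043 to 9361 fragments per library, and its level was at percentile 94.0 of the genes tested. The table holds 1 value per gene, so fragments of the intact allele and of the 5′ part carried by the fusion cannot be told apart, nor can the distal and proximal promoters.

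RUNX3 (ENSG00000020633), known for its part in CD8 T cells and other lymphoid and myeloid cells, lies at chr1:24899511-24965121 on the minus strand. It had 22.6, 21.1 and 25.9 FPKM in control replicates 1, 2 and 3, and 24.4, 26.6 and 26.0 FPKM in I13 replicates 1, 2 and 3. Control replicate 3 reached the level of the I13 libraries and the other 2 controls were below all of them. The means of 23.2 ± 2.47 and 25.7 ± 1.09 FPKM (SD, n = 3) gave a log2 fold change of 0.15 (SE 0.082, 95% interval -0.05 to 0.34), the largest of the 7, with an adjusted p of 0.980 in limma. The unadjusted limma p was 0.116, and the exact permutation p was 0.2, where 0.1 is the smallest that 3 against 3 libraries can give.

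RUNX3 was the 1 gene of the 7 with an unadjusted limma p under 0.05 in any alternative. Without control replicate 3 its log2 fold change was 0.23 (limma, unadjusted p = 0.0112, adjusted p = 0.667), and without control replicate 2 it was 0.08 (limma, unadjusted p = 0.351). Among the 4 libraries outside the pair it was 0.20 (limma, unadjusted p = 0.0296, adjusted p = 0.538), where 8.58% of all genes had an unadjusted p under 0.05, and the difference between the 2 libraries of the pair was 0.03. With a term for the pair in the model the unadjusted limma p was 0.0385 (adjusted p = 0.628), where 7.62% of all genes had an unadjusted p under 0.05. In voom with that term, a fit chosen after seeing the data, the unadjusted p was 0.00869 and the adjusted p was 0.247, where 10.4% of all genes had an unadjusted p under 0.05. No other of the 19 alternatives gave RUNX3 a smaller adjusted p.

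RUNX2 (ENSG00000124813), the master regulator of osteoblasts, was the lowest of the 7. It lies at chr6:45328157-45664349 on the plus strand. It had 4.77, 4.14 and 3.75 FPKM in control replicates 1, 2 and 3, and 4.40, 3.74 and 4.23 FPKM in I13 replicates 1, 2 and 3. Control replicate 1 was the highest library, while I13 replicate 2 and control replicate 3 were the lowest. The log2 fold change was -0.03 (SE 0.114, 95% interval -0.30 to 0.24, limma), the widest interval of the 7, from 509 to 673 fragments per library. The gene sat at percentile 60.6 of the levels.

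CBFB (ENSG00000067955), the subunit that all RUNX proteins share, lies at chr16:67029116-67101058 on the plus strand. Its level was 20.8, 22.6 and 18.3 FPKM in control replicates 1, 2 and 3, against 22.9, 20.4 and 21.9 FPKM in I13 replicates 1, 2 and 3. Control replicate 3 was the lowest library, and the other values of both groups lay among each other. The means were 20.5 ± 2.17 and 21.7 ± 1.27 FPKM (SD, n = 3), or 0.09 as a log2 fold change (SE 0.087, 95% interval -0.12 to 0.29, limma). It was 0.05 in the 4 libraries outside the pair and 0.16 within the pair.

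RUNX1T1 (ENSG00000079102), the ETO gene itself, lies at chr8:91954967-92103286 on the minus strand. Blood cells without the translocation are known to express it little, and in these cells it was at percentile 83.0. It had 14.4, 13.6 and 12.9 FPKM in control replicates 1, 2 and 3, and 13.5, 12.5 and 14.0 FPKM in I13 replicates 1, 2 and 3. Each group held a high and a low library, and the groups overlapped over most of their range. The means were 13.6 ± 0.782 and 13.4 ± 0.762 FPKM (SD, n = 3), with a log2 fold change of -0.03 (SE 0.069, 95% interval -0.19 to 0.13, limma). As a fold the interval ran from 0.876 to 1.10, with 2827 to 3364 fragments per library behind it. As for RUNX1, fragments of the fusion and of the intact gene cannot be told apart.

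CBFA2T2 (ENSG00000078699), at chr20:33490075-33650036 on the plus strand, was the steadiest gene of the family. Its FPKM was 4.68, 5.07 and 4.75 in control replicates 1, 2 and 3, and 4.97, 4.72 and 4.74 in I13 replicates 1, 2 and 3. Control replicate 2 was the highest library, control replicate 1 the lowest, and the groups overlapped. The log2 fold change was -0.01 (SE 0.073, 95% interval -0.18 to 0.16, limma). CBFA2T3 (ENSG00000129993), at chr16:88874858-88977204 on the minus strand, is known from hematopoietic progenitors and erythroid cells. It had 6.50, 6.64 and 6.05 FPKM in control replicates 1, 2 and 3, and 5.84, 6.60 and 6.45 FPKM in I13 replicates 1, 2 and 3. I13 replicate 1 was the lowest library and control replicate 2 the highest, and the groups overlapped. Its log2 fold change was -0.02 (SE 0.078, 95% interval -0.21 to 0.16, limma), with -0.10 in the 4 libraries outside the pair and 0.12 within it.

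**Figure D2:**
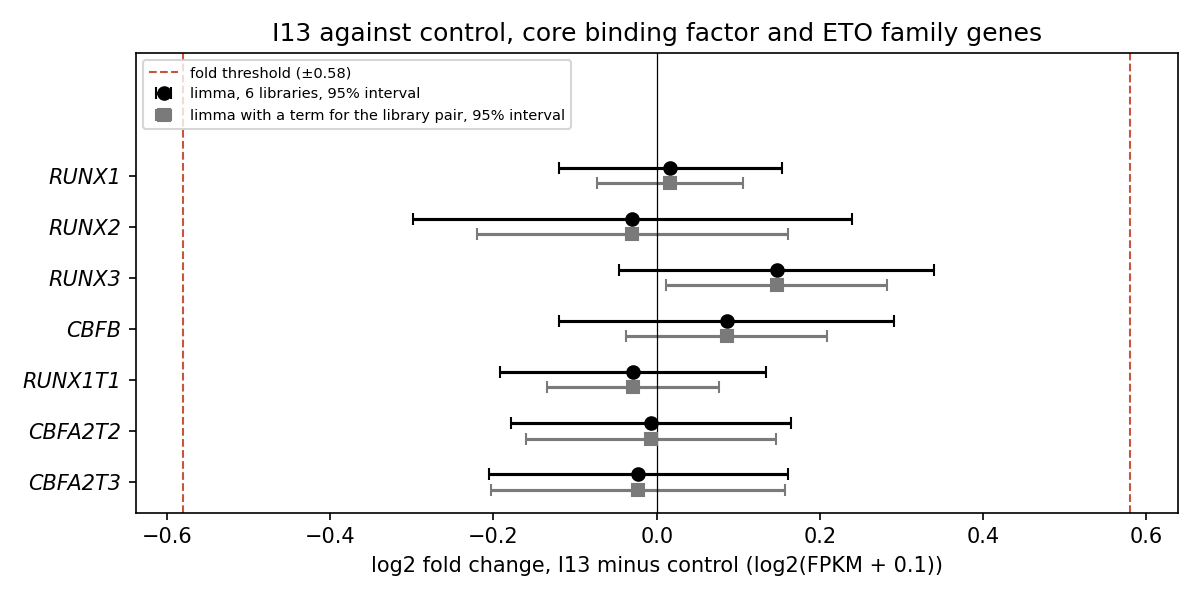
Log2 fold change of I13 over control for the 7 genes, with points at the limma estimate and bars for the 95% interval. The dashed lines mark the threshold of 0.58, and every bar lay between them, from -0.30 for RUNX2 to 0.34 for RUNX3.

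The order of the levels per exon length, over all 6 libraries, was RUNX1, RUNX3, CBFB, RUNX1T1, CBFA2T3, CBFA2T2 and RUNX2. RUNX1 was above RUNX3 in 6 of 6 libraries with a ratio of mean FPKM of 1.39. RUNX3 was above CBFB in 5 of 6 libraries, with a ratio of 1.16, and their ranges overlapped. CBFB was above RUNX1T1 in all 6 by a ratio of 1.57. The largest step was from RUNX1T1 to CBFA2T3, with a ratio of 2.13 in 6 of 6 libraries. CBFA2T3 exceeded CBFA2T2 in 6 of 6 with a ratio of 1.32. CBFA2T2 was above RUNX2 in 5 of 6 libraries, and these neighbours overlapped as well.

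The proportions within the families differed between the groups by no more than the libraries of a group allowed. RUNX1 made up 55.2 ± 3.01% of the summed RUNX FPKM in control and 53.5 ± 1.90% in I13 (SD, n = 3, exact permutation p = 0.5). The difference of -1.77 percentage points became -3.43 without control replicate 3, -2.83 without I13 replicate 1, -1.02 without I13 replicate 2, -0.496 without control replicate 2 and -2.68 without the pair. RUNX3 took 35.3% to 42.1% of that sum over the 6 libraries and RUNX2 took 5.93% to 7.65%. RUNX1T1 made up 54.8 ± 1.38% of the summed ETO family FPKM in control and 54.6 ± 1.77% in I13 (SD, n = 3, exact permutation p = 1.0). CBFA2T3 held 24.0% to 27.7% of it and CBFA2T2 held 18.3% to 20.4%.

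Between the families, the ratio of RUNX1T1 to RUNX1, both partners of the fusion, was 0.403 ± 0.0103 in control and 0.390 ± 0.0214 in I13 (SD, n = 3, exact permutation p = 0.5). Over the 6 libraries it stayed between 0.374 and 0.415, and the difference between the groups was -0.0123, with a range of -0.0245 without I13 replicate 3 to -0.00430 without I13 replicate 1. The ratio of CBFB to the summed RUNX genes was 0.336 ± 0.0411 in control and 0.340 ± 0.0150 in I13 (SD, n = 3, exact permutation p = 0.9). These ratios compare levels of RNA per exon length and not of protein. The values of RUNX1 and RUNX1T1 do not separate intact from fusion transcripts, so their ratio does not measure the fusion. After adjustment over the 4 shares and ratios, each had a p of 1 (exact permutation, Benjamini-Hochberg).

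The libraries varied more for some of the 7 genes than counting alone gives. For RUNX1 the coefficient of variation within groups was 4.80% beside 1.07% from counting, a ratio of 4.48. It was 10.5% beside 4.21% for RUNX2, 7.82% beside 2.35% for RUNX3, 8.42% beside 2.64% for CBFB and 5.72% beside 1.82% for RUNX1T1. For CBFA2T2 it was 3.62% beside 3.65%, so that the spread was as small as the counts allow, and for CBFA2T3 it was 5.65%, a ratio to counting of 1.41. The median standard error of the 7 fold changes was 0.0775 on the log2 scale, beside 0.154 for all genes tested.

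The library pair stood at the low or high end for several of the 7 genes. For 4 of the 7 genes, RUNX1, RUNX2, CBFB and RUNX1T1, control replicate 3 and I13 replicate 2 were the 2 lowest libraries, by 0.10, 0.22, 0.19 and 0.13 on the log2 scale below the mean of the other 4. RUNX3 went the other way and was higher in the pair by 0.16. CBFA2T2 and CBFA2T3 were lower by 0.04 and 0.01. Over all genes tested, the pair held the 2 lowest or the 2 highest libraries for 27.5%, which was 5149 of 18726. The pair holds 1 library of each group.

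**Figure D3:**
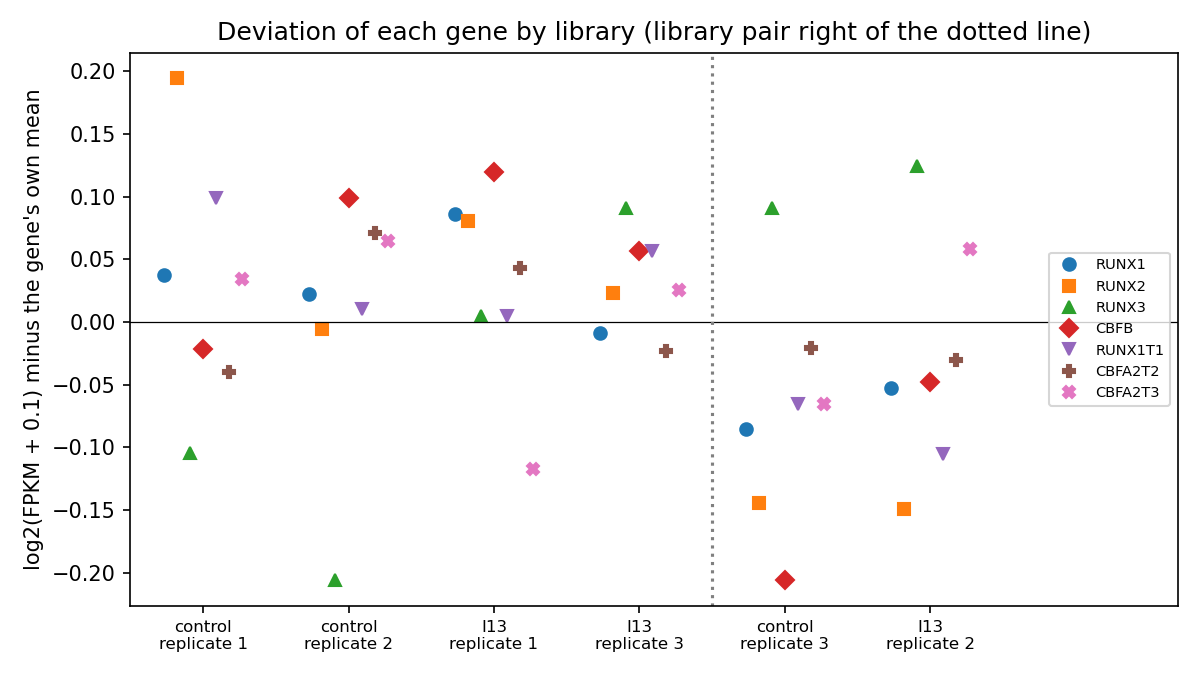
Log2(FPKM + 0.1) of each of the 7 genes minus its own mean over the 6 libraries, with control replicate 3 and I13 replicate 2 to the right of the dotted line. RUNX1, RUNX2, CBFB and RUNX1T1 lay below 0 in both of these libraries and RUNX3 lay above 0.

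Genes with a profile over the 6 libraries like that of RUNX1 or RUNX1T1 were sought among 11516 genes with a mean of at least 1 FPKM. The measure was the root mean square distance between mean-centred log2(FPKM + 0.1) values, where RUNX1 itself varied by 0.0571. The nearest to RUNX1 were RTF1, a transcription elongation factor, at 0.0131, GTF2I, a general transcription factor, at 0.0152 and MRPS10, a mitochondrial ribosomal protein, at 0.0154. The nearest to RUNX1T1, which varied by 0.0687, were GTF3C4 at 0.0116, AC008124.1 at 0.0131 and SLC25A40 at 0.0145. Of the family itself, RUNX1T1 came at rank 752 for RUNX1, and RUNX1 came at rank 788 for RUNX1T1. CBFA2T2 came at rank 552 and RUNX3 at rank 8423 for RUNX1. These 6 points share their libraries and the library pair.

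Some of the 7 genes share genomic bases with another gene. RUNX1T1 shares 66 exon bases with AF181450.1 on the opposite strand, which had 0.736 to 1.42 FPKM. CBFA2T3 shares 501 exon bases with AC092384.2, also on the opposite strand, which had 0.0784 to 0.296 FPKM. SUPT3H overlaps RUNX2 without a shared exon base and had 1.80 to 2.24 FPKM. Whether the counting used the strand of the kit is not given in the sources used here, and without it the reads of such partners cannot be told apart.

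The proteins that work with AML1-ETO were described next. Of 8 genes for the E proteins and the LMO2 and LDB1 complex that hold the fusion protein, 7 were tested and TCF4 was listed at 0. Of the 7, 1 was higher and 6 were lower with I13, 0 passed the unadjusted limma p of 0.05, and the median log2 fold change was -0.02. In the 4 libraries outside the pair, LMO2 had an unadjusted limma p of 0.0430. LYL1, a basic helix-loop-helix factor, had 114 ± 5.54 FPKM in control and 112 ± 6.58 FPKM in I13 (SD, n = 3). LDB1, which dimerises to bridge such complexes, had 64.2 ± 6.15 and 61.3 ± 5.05 FPKM (SD, n = 3).

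Of 12 corepressors of the ETO proteins, 11 were tested, 5 higher and 6 lower, with 0 past the unadjusted limma p and a median of -0.03. HDAC1, a histone deacetylase of these complexes, had 55.8, 55.1 and 59.1 FPKM in control replicates 1, 2 and 3, and 58.4, 60.1 and 61.9 FPKM in I13 replicates 1, 2 and 3. The groups overlapped through control replicate 3, and the log2 fold change was 0.08 (SE 0.048, limma, adjusted p = 0.983). Without control replicate 3 it was 0.12, with an unadjusted limma p of 0.0353. KDM1A, a histone demethylase, had 50.5 ± 1.29 FPKM in control and 51.6 ± 0.467 FPKM in I13 (SD, n = 3). Its groups barely missed each other, with a highest control value of 51.2735 FPKM and a lowest I13 value of 51.2736 FPKM. It was the 1 gene of the 11 without overlap in either direction, where 9.52% of all genes were without overlap and 4.88% were higher without overlap. GPS2 was counted at 0 fragments in control and 4 in I13 and was not tested.

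Of 15 cofactors and modifiers of RUNX proteins, 14 were tested, 5 higher and 9 lower, with 0 past the unadjusted limma p and a median of -0.04. That count became 2 with the term for the library pair, TLE4 and KAT6A, both lower with I13, where 7.62% of all genes had an unadjusted p under 0.05. These 2 of the 14 had I13 libraries below all control libraries, against 4.64% of all genes. PRMT6, the 1 gene with I13 libraries above all control libraries (4.88% of all genes), had 14.3 ± 0.182 FPKM in control and 15.2 ± 0.576 FPKM in I13 (SD, n = 3). TLE4, a Groucho-type corepressor, had 4.63 ± 0.168 FPKM in control and 4.14 ± 0.0753 FPKM in I13 (SD, n = 3), with a limma p of 0.0672 unadjusted and 0.0383 with the pair term. KAT6A, a histone acetyltransferase, had 10.8 ± 0.348 and 9.98 ± 0.455 FPKM (SD, n = 3), with a limma p of 0.105 unadjusted and 0.0497 with the pair term. The count at the unadjusted limma p was also 2, TLE4 and CCND3, without control replicate 3 and in the 4 libraries. Of all 18726 genes tested, 1202 were under it without control replicate 3, and 8.58% were in the 4 libraries. PRMT1, which methylates RUNX1, had 77.6 ± 5.68 FPKM in control and 80.9 ± 6.44 FPKM in I13 (SD, n = 3). CDK6, a cyclin-dependent kinase that also binds RUNX1, had 60.8 ± 2.27 and 62.0 ± 6.91 FPKM (SD, n = 3), with a log2 fold change of 0.02, or 0.09 in the 4 libraries and -0.11 within the pair.

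Of 11 transcription factors that act beside RUNX1, 8 were tested, 3 higher and 5 lower, with a median of -0.09. FLI1, an ETS factor that shares many sites with RUNX1, was the 1 gene of the list with an unadjusted limma p under 0.05, or 12.5% of the 8 against 5.14% of all genes. It had 27.4, 26.2 and 25.2 FPKM in control replicates 1, 2 and 3, and 22.1, 21.2 and 23.1 FPKM in I13 replicates 1, 2 and 3. All I13 libraries were below all control libraries. The log2 fold change was -0.24 (SE 0.056, limma, unadjusted p = 0.00331, adjusted p = 0.669), and it was -0.24 in the 4 libraries and -0.25 within the pair. GFI1, a transcriptional repressor that acts in granulocyte development, had 159 ± 4.49 FPKM in control and 150 ± 3.31 FPKM in I13 (SD, n = 3, limma, adjusted p = 0.962). Its I13 libraries were also all below control, so that 2 of the 8 were lower without overlap, against 4.64% of all genes. SPI1, the PU.1 factor of myeloid cells, had 114 ± 7.78 and 105 ± 6.02 FPKM (SD, n = 3, limma, adjusted p = 0.983). With the term for the library pair, SPI1 had an unadjusted limma p of 0.0257 (adjusted p = 0.623), so that 2 of the 8 were under 0.05. In voom with that term it was 5 of the 8, with GFI1, ERG and MYB, against 10.4% of all genes. FLI1 had an adjusted p of 0.00215 in that voom fit, at a log2 fold change of -0.25, under the fold threshold.

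Most known targets of the core binding factor had a lower mean log2 level with I13, without a call at the adjusted p in limma. Of 22 target genes of myeloid and lymphoid cells, 19 were in the table and 14 were tested. Of these 1 was higher and 13 were lower with I13, where 48.2% of all genes tested were lower, and the median was -0.15. At the unadjusted limma p, 5 of the 14 (35.7%) were lower, against 2.59% of all genes, and the same 5 had I13 libraries below all control libraries, against 4.64% of all genes. With the fold threshold as well it was 1 of the 14, LYZ, against 2.38% of all genes. The smallest adjusted p of the list was 0.517 in limma. The 5 were CSF1R, CSF3R, LYZ, CTSG and CD4. Voom gave 7 at the unadjusted p, with MPO and ITGAL, against 5.65% of all genes, and ITGAL had 46 fragments in control and 21 in I13.

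CSF1R, the receptor for macrophage colony-stimulating factor, had 6.87, 6.13 and 6.97 FPKM in control replicates 1, 2 and 3, and 4.27, 5.07 and 5.17 FPKM in I13 replicates 1, 2 and 3. Its log2 fold change was -0.46 (SE 0.099, limma, adjusted p = 0.583), from 350 to 609 fragments per library. Voom gave it an adjusted p of 0.0382 at a log2 fold change of -0.47, under the fold threshold. CSF3R, the receptor for granulocyte colony-stimulating factor, had 91.8, 91.0 and 91.0 FPKM in control replicates 1, 2 and 3, and 71.4, 78.4 and 78.2 FPKM in I13 replicates 1, 2 and 3. The control values were within 1 FPKM of each other and every I13 value was lower (log2 fold change -0.27, SE 0.050, limma, adjusted p = 0.517).

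LYZ, lysozyme, had the lowest fold change of the tested target genes. It had 4.54, 4.79 and 5.65 FPKM in control replicates 1, 2 and 3, and 2.99, 2.99 and 3.78 FPKM in I13 replicates 1, 2 and 3, from only 84 to 165 fragments a library. The log2 fold change was -0.60 (SE 0.129, limma, adjusted p = 0.570), with -0.46 in the 4 libraries and -0.89 within the pair. CTSG, the granule protease cathepsin G, had 192 ± 7.07 FPKM in control and 158 ± 14.3 FPKM in I13 (SD, n = 3, limma, adjusted p = 0.742), with a log2 fold change of -0.39 in the 4 libraries and -0.08 within the pair. CD4, a receptor of T cells and monocytes, had 26.9 ± 0.702 and 23.7 ± 1.38 FPKM (SD, n = 3, limma, adjusted p = 0.875), with -0.24 in the 4 libraries and -0.07 within the pair. Its unadjusted limma p was 0.0138. T cell markers were near 0 in every library, as given above, and lower in I13.

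The granule genes MPO and PRTN3 were the highest of the targets. MPO, myeloperoxidase, had 11943 ± 439 FPKM in control and 11027 ± 771 FPKM in I13 (SD, n = 3), and the groups overlapped. PRTN3, proteinase 3, had 3256 ± 112 and 3019 ± 416 FPKM (SD, n = 3), and its log2 fold change was -0.25 in the 4 libraries and 0.14 within the pair.

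Of 10 genes often raised in leukemia with t(8;21), 8 were tested, 2 higher and 6 lower with I13, with a median of -0.08. The unadjusted limma p was under 0.05 for 2 that were higher, against 2.55% of all genes, and for 2 that were lower, against 2.59%. Of the 8, 2 had I13 libraries above all control libraries, against 4.88% of all genes, and 1 had them below, against 4.64%. BAALC, a marker of immature blasts, had 4.98, 4.05 and 4.61 FPKM in control replicates 1, 2 and 3, and 6.22, 6.75 and 6.45 FPKM in I13 replicates 1, 2 and 3. The I13 libraries were all above the controls (log2 fold change 0.50, SE 0.093, limma, adjusted p = 0.510), and voom gave an adjusted p of 0.0333 at a log2 fold change of 0.51, under the fold threshold.

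PAX5, a B cell factor that t(8;21) blasts often express, had 0.548, 0.406 and 0.731 FPKM in control replicates 1, 2 and 3, and 1.05, 0.886 and 0.912 FPKM in I13 replicates 1, 2 and 3. The groups did not overlap, the log2 fold change was 0.69 (SE 0.233, limma, adjusted p = 0.890), and it was 0.91 in the 4 libraries and 0.25 within the pair. Summed B cell markers, given above, overlapped between the groups. TRH, thyrotropin-releasing hormone, had 35.5, 33.0 and 32.7 FPKM in control replicates 1, 2 and 3, and 21.3, 27.4 and 25.9 FPKM in I13 replicates 1, 2 and 3. Its I13 libraries were all below control (log2 fold change -0.45, SE 0.096, limma, adjusted p = 0.575), and voom gave an adjusted p of 0.0230 at a log2 fold change of -0.45, under the fold threshold.

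ID1, an inhibitor of helix-loop-helix factors, had 30.7 ± 3.10 FPKM in control and 24.7 ± 3.20 FPKM in I13 (SD, n = 3), and its groups overlapped. Its log2 fold change of -0.32 (limma, adjusted p = 0.901) was -0.49 in the 4 libraries and 0.03 within the pair. Leaving out any 1 of the 4 libraries outside the pair (control replicates 1 and 2, I13 replicates 1 and 3) took PAX5 and ID1 above an unadjusted limma p of 0.05, so that 2 of the 8 were under it. Of all 18726 genes tested, 784 to 951 were under it in these 4 fits. JUP, plakoglobin, had 101 ± 8.29 FPKM in control (SD, n = 3), with a log2 fold change of -0.09 and overlapping groups. The fold change was -0.03 without control replicate 3 and -0.16 without I13 replicate 2, and the unadjusted limma p was 0.286, or 0.0150 with the term for the library pair (adjusted p = 0.587).

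**Figure D4:**
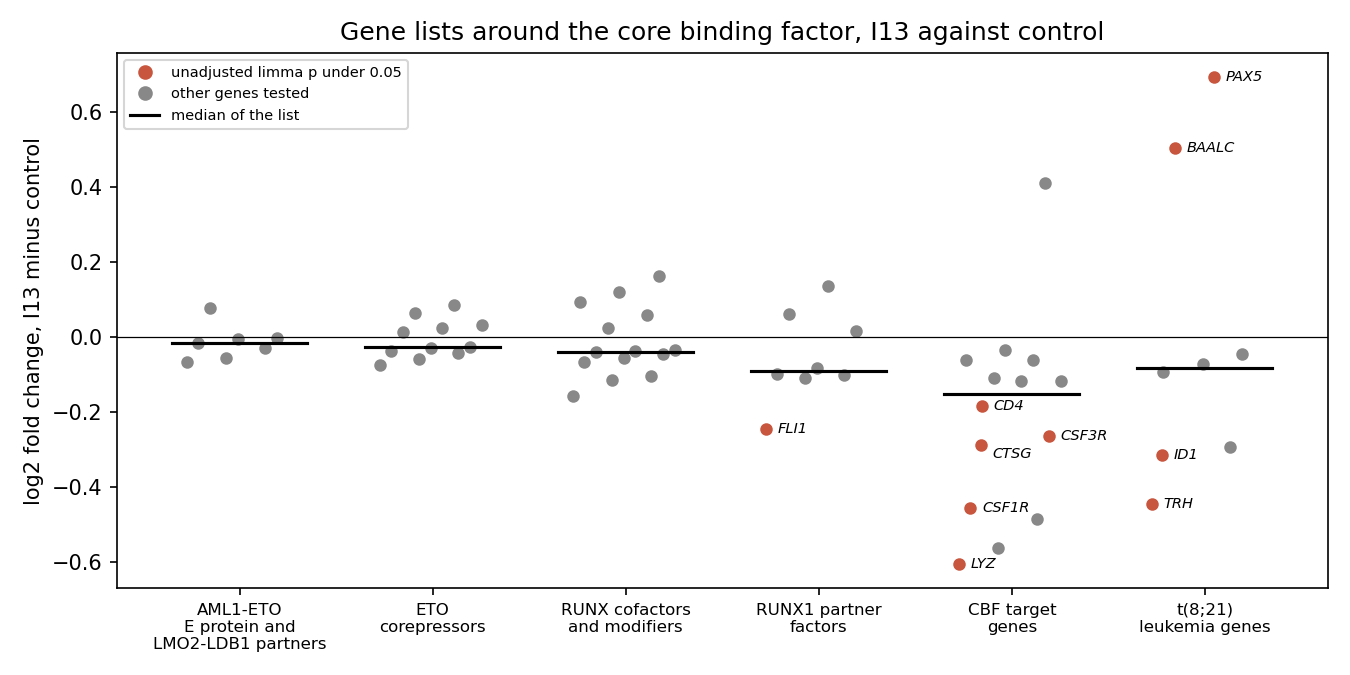
Log2 fold change of I13 over control for each tested gene of 6 lists around the core binding factor, with a bar at the median of each list. Genes with an unadjusted limma p under 0.05 are named, and the medians went from -0.02 for the AML1-ETO partners to -0.15 for the target genes.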

How the data were processed

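RNA of Kasumi-1 cells was extracted with Trizol and made into libraries with a TruSeq Stranded mRNA kit, 3 of control and 3 of I13. The authors deposited 1 table of FPKM per gene and library. The submitters' processing notes name Trimmomatic, HISAT2, Cufflinks, HTSeq and hg38. For these tools, the sources used here give no role, version or strand setting. Depth was 15281052 to 17221345 fragments. Multiplied back by exon lengths of GENCODE 29, the FPKM of 25773 of 27002 genes (95.4%) came out as whole fragments, to within 0.01, in every library.

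The groups were compared by limma 3.58.1 (R 4.3.3), two-sided, with a trended variance, on log2(FPKM + 0.1) of the 18726 genes whose mean FPKM reached 0.1. The pseudocount of 0.1 reduces the fold changes of low genes. Adjusted p-values are Benjamini-Hochberg values over all 18726 genes. Exact permutation tests were two-sided, run in Python 3.11.15 with scipy 1.17.1. Voom was run on whole fragments, for 12966 genes averaging 10 or more, with TMM scaling. The fit was tested on simulated data. Alternatives were the pseudocount, the filter, the scaling, the variance model, voom, a replicate block, a term for the library pair and leaving out libraries.

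The 7 genes and all lists were chosen with earlier results of these data known, so their counts are descriptions. By name the text gives all 7 genes. Of each list it gives the 2 highest genes and every gene under 0.05 in limma's p of the 2 groups, adjusted or not. For RUNX1 and RUNX1T1 it gives the 3 nearest profiles. Named after their values were seen are the genes that pass only in an alternative and the marker genes. GPS2, TCF4 and the overlapping genes were added to state what was not tested or shares bases.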

Additional observations from a re-analysis of the deposited data

How the results depend on the processing

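Of 133 values for the 7 genes under 19 alternatives, 122 kept their direction and stayed above the adjusted p of 0.05, and 11 changed sign, all on leaving out 1 library. Leaving out 1 library in turn gave log2 fold changes of -0.0223 to 0.0474 for RUNX1, -0.109 to 0.0601 for RUNX2, 0.0805 to 0.229 for RUNX3, 0.00405 to 0.157 for CBFB, -0.0688 to 0.0163 for RUNX1T1, -0.0303 to 0.0266 for CBFA2T2 and -0.0608 to 0.0305 for CBFA2T3. It gave -0.0434 to 0.115 for CDK6, -0.129 to 0.00660 for LDB1, -0.0693 to 0.0154 for LYL1 and -0.00229 to 0.115 for PRMT1. The I13 minus control difference ran from -0.794 to 0.784 percentage points for the RUNX1T1 share, from -3.43 to -0.496 for the RUNX1 share, from -0.0245 to -0.00430 for the RUNX1T1 to RUNX1 ratio and from -0.0159 to 0.0251 for the CBFB ratio. Without control replicate 3 and I13 replicate 2 together, the RUNX1T1 share and the CBFB ratio were at 0.566 and -0.00778, and LDB1 was at 0.00607. The 0 genes past the adjusted p and the fold became 9 in limma without a trend, 9 in voom and 14 in voom with the pair as a model term, an alternative chosen after seeing the data. The 445 genes past the unadjusted p and the fold became 134 with a pseudocount of 1, 119 with a minimum mean FPKM of 1, 202 in voom, 196 in voom with the pair term and 963 with no fold threshold. The 963 genes past the unadjusted p became 582 with that minimum and 1607 in the 4 libraries. With a term for the library pair and all libraries kept, 1427 genes passed the unadjusted limma p. A higher minimum and voom test fewer genes, and the 4 libraries are fewer samples and leave out the pair. The cause of these shifts was not tested. Of the target genes, 5 had an unadjusted p under 0.05, and 8 in voom with the pair term, where 1354 of 12966 genes (10.4%) did. PAX5 passed the adjusted p and the fold there. Under the fold threshold, that voom fit gave adjusted p-values of 0.000567 for CSF3R, 0.00291 for CTSG and 0.00295 for CSF1R. It also gave 0.00215 for FLI1, 0.00117 for TRH and 0.00345 for BAALC, likewise under the fold threshold. Deviations from the group mean had correlations of 0.083, -0.070 and -0.017 between same-numbered libraries of replicates 1, 2 and 3. Between control replicate 3 and I13 replicate 2, which stood apart together, the correlation was 0.072. As the measure was small for that pair as well, it cannot decide whether same-numbered replicates were paired. With the replicate block 0 genes passed the adjusted p and the fold, 506 passed the unadjusted p and the fold, and RUNX3 had an unadjusted limma p of 0.133. With 3 libraries a group, differences of the 7 genes smaller than their intervals could not be detected.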
